A study of Bostrychia moritziana with 3 samples.

Results

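Bostrychia moritziana is a red alga whose male, female and spore-bearing plants live free of each other. The transcripts described here were those that stood clearly lower in the female gametophyte than in either the tetrasporophyte or the male gametophyte, without being lost from the female. Members were chosen by their RPKM, the reads assigned to a transcript for each kilobase of its length and each 1000000 mapped reads. The conditions were at least 10 RPKM in both the tetrasporophyte and the male, these 2 less than 4-fold apart, each at least 4 times the female value, and the female above 0.3 RPKM. Of 36534 transcripts listed for at least 1 library, 28609 were listed for all 3, and 189 met the rule. The choice used all 3 values of every transcript, so the lower female level is a description of the members and was given no test.

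RNA came from female gametophytes that were forming carpogonial branches, from tetrasporophytes that had grown from released carpospores and carried ripe sporangia, and from male gametophytes that were forming clusters of spermatangia. The 3 groups shared a strain label (2746) and unialgal culture at 20 °C under 16 h of light and 8 h of dark. Each life stage had 1 library, so no spread between replicates was known, no p-value was computed, and every difference is one between 3 libraries. The number of plants pooled per library was not stated in the labels. In libraries of whole plants, fewer cells of a type and less RNA per cell cannot be told apart.

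In red algae of this kind the male gametophyte sheds non-motile spermatia, and the female gametophyte bears the carpogonium, the egg-bearing cell that receives them. Fertilization gives a carposporophyte that grows on the female, and its carpospores grow into the diploid tetrasporophyte. Meiosis in the tetrasporangia yields the spores from which new male and female gametophytes arise, so the tetrasporophyte carries the genes of both sexes, whereas each gametophyte is haploid and of 1 sex. The files identify a transcript by an assembly number (ISGT followed by a number) and do not pair it with a gene name, a function or a sequence. No role can therefore be given to any member, and no pathway list or marker of a life stage could be evaluated.

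The female and male listings each held 30448 transcripts and that of the tetrasporophyte 34695. In the order female, tetrasporophyte, male, they had summed values of 455672, 486668 and 502958 RPKM. The sources used here give neither read totals nor transcript lengths, so no counting interval was computed for any value. Low values moved in steps, which bears on relative depth. The most common log2 ratio of low values was -0.16 for female to male (71 transcripts, against 31.3 beside it) and -0.20 for female to tetrasporophyte (60 against 23). It was 0.04 for tetrasporophyte to male (145 against 33.5). Taking these steps as those of equal read numbers, which was not tested, the female library held 1.15 times as many reads as the tetrasporophyte library and 1.12 times as many as the male library.

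The 189 members were of middling abundance in the female and abundant in the other 2 libraries. In the female they ran from 0.31 to 61.1 RPKM with a median of 4.08 RPKM. In the tetrasporophyte they ran from 10.2 to 1343 RPKM with a median of 28.7 RPKM, and in the male from 10.1 to 691 RPKM with a median of 38.5 RPKM. By rank among the 28609 transcripts listed for all 3 libraries, the median member stood at percentile 57.7 of the female, percentile 86.7 of the tetrasporophyte and percentile 91.0 of the male. These ranks do not depend on how the libraries are scaled. No member reached 100 RPKM in female plants, whereas 26 did in the tetrasporophyte and 33 in the male.

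Together the members held 0.255% of the summed RPKM of the female library, 2.52% of the tetrasporophyte library and 2.57% of the male library. The 10 members most abundant in a library, chosen separately for each, made up 27.3% of the members' sum in the female. In the tetrasporophyte the corresponding share was 36.7% and in the male 29.8%. A few abundant transcripts thus carried much of the sum in each library. Presence in the female was mostly well above the 0.3 RPKM floor. Only 15 members were below 1 RPKM there, 102 were from 1 to under 5 RPKM, 47 from 5 to under 10 RPKM, and 25 reached 10 RPKM.

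**Figure D1:**
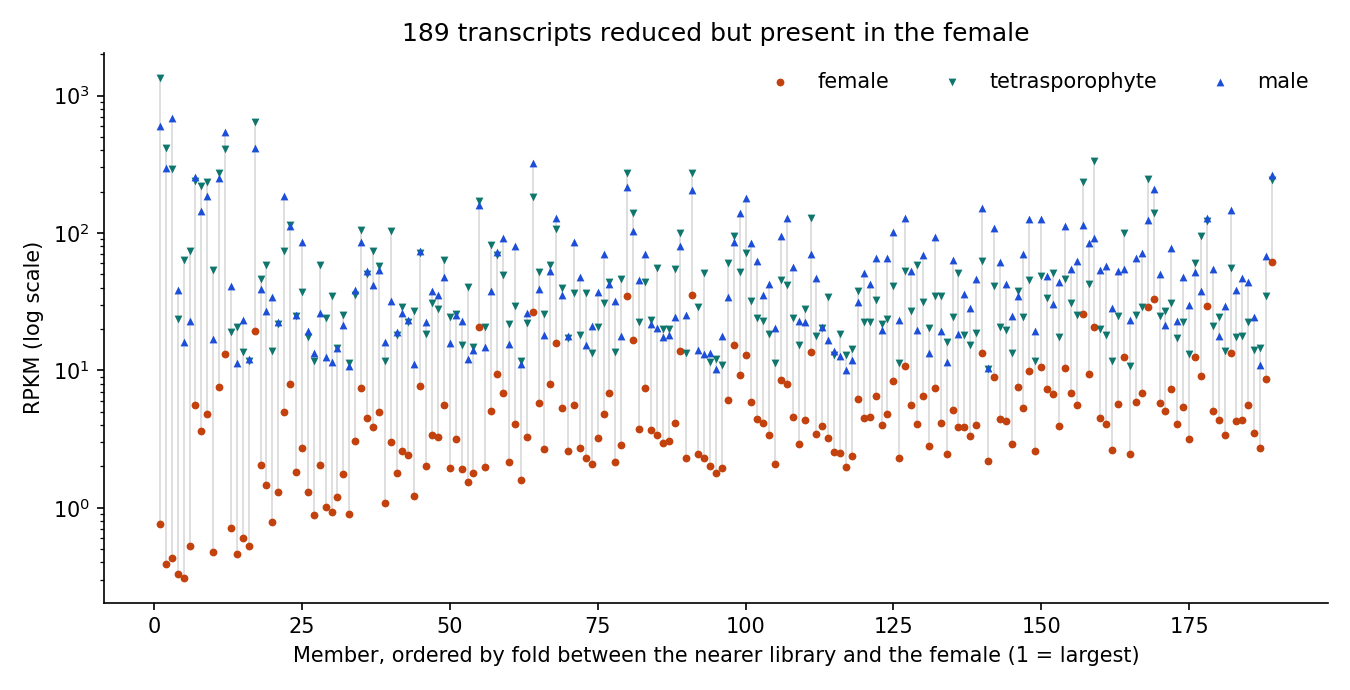
Each member's RPKM (log scale) in the female (circles), tetrasporophyte (downward triangles) and male (upward triangles), ordered from the largest to the smallest fold between the nearer of tetrasporophyte and male and the female. The female points lie between 0.31 and 61.1 RPKM, and the first 3 members stand apart by their wide gaps.

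The rule applied to 7824 transcripts that met its tetrasporophyte and male conditions (at least 10 RPKM in both and less than 4-fold apart). The 189 members were 2.42% of them. A further 41 of the 7824 also had the female at least 4 times below both other libraries but at most 0.3 RPKM, 11 of them listed at 0, which brings the total reduced in the female to 230 (2.94%). In the opposite direction, 40 of the 7824 (0.511%) had the female at least 4 times above both. The rule itself used this contrast, so nothing is read from these shares about the members. The median transcript of the 7824, leaving out those at 0 in the female, had a log2 ratio of female to the nearer library of 0.18, with quartiles at -0.24 and 0.57. Members formed the lower edge of a continuous cloud and not a separate group along most of its length.

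**Figure D2:**
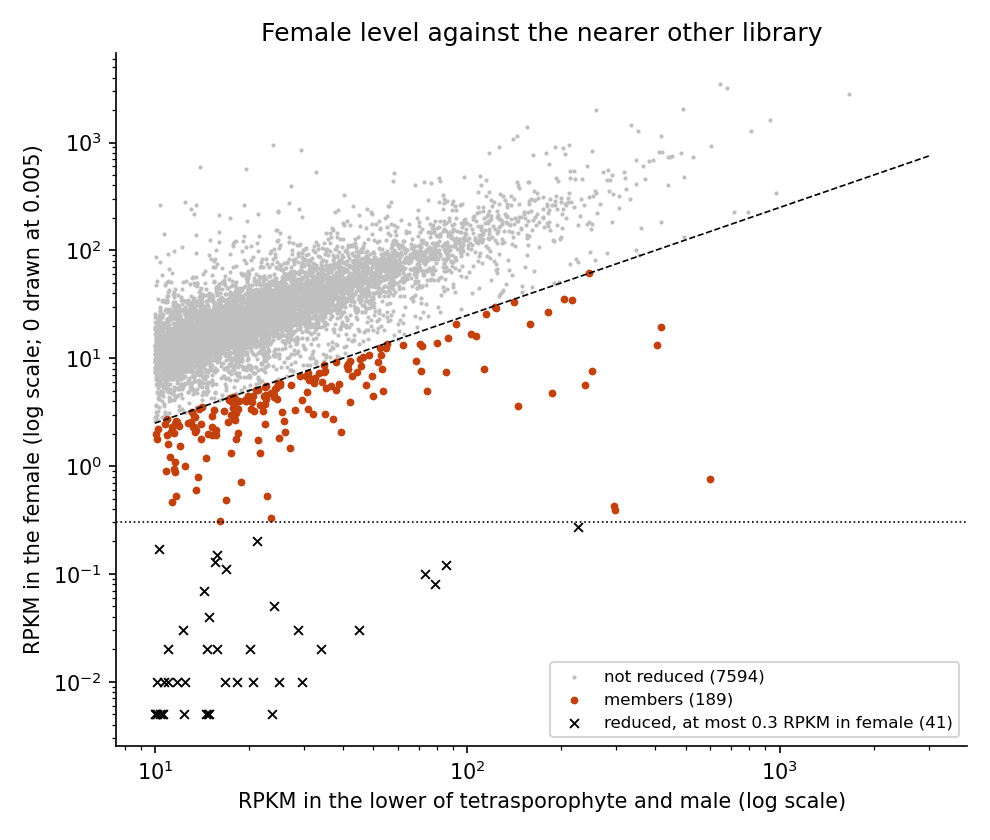
RPKM in female plants against RPKM in the lower of tetrasporophyte and male (both log scales) for the 7824 transcripts with at least 10 RPKM in, and less than 4-fold between, tetrasporophyte and male. The dashed line marks 4-fold and the dotted line 0.3 RPKM in female plants. The 189 members lie below the dashed line and above the dotted line. The 41 transcripts at or under the dotted line (crosses, 0 drawn at 0.005) are not members.

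The fall was modest for most members and extreme for 3. Against the nearer of tetrasporophyte and male, 69 members were 4 to under 5 times lower in the female, 69 were 5 to under 8 times lower, 30 were 8 to under 16 times lower, 17 were 16 to under 64 times lower, and 4 were lower still. The median member was 5.69 times below the nearer library, 6.68 times below the tetrasporophyte and 9.92 times below the male. The median log2 ratio was -2.74 for female to tetrasporophyte and -3.31 for female to male. Over all transcripts that both listings held and that reached 10 RPKM in either, 7.6% (804 of 10572) had the female at least 4 times below the tetrasporophyte, and 11.1% (1202 of 10798) had it at least 4 times below the male.

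ISGT_41092 had the largest fall and was also the most abundant member. It stood at 0.76 RPKM in female plants, 1343 RPKM in tetrasporophytes and 599 RPKM in male plants. Its log2 ratio was -10.79 for female to tetrasporophyte and -9.62 for female to male. It ranked at percentile 43.4 of the female library, against percentile 99.97 of the tetrasporophyte and percentile 99.8 of the male, so a transcript near the top of the other 2 libraries lay below the middle of the female one.

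A pair of other members came close to it in size. One stood at 0.39 RPKM in female plants, 415 RPKM in tetrasporophytes and 296.5 RPKM in male plants, which is 760 times below the nearer library. The other stood at 0.43 RPKM in female plants, 294 RPKM in tetrasporophytes and 691 RPKM in male plants, 685 times below the nearer. After these 3 there was a wide gap, since the next member, with 0.33 RPKM in female plants, 23.6 RPKM in tetrasporophytes and 38.1 RPKM in male plants, was 71.5 times below the nearer library. All 3 were under 1 RPKM in the female library, and 8 members in all lay below 0.6 RPKM there.

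ISGT_4326 was the next most abundant member and kept a clear female level. It stood at 19.4 RPKM in female plants, 642 RPKM in tetrasporophytes and 415 RPKM in male plants. The female value was lower by a log2 ratio of -5.05 to the tetrasporophyte and -4.42 to the male. It ranked at percentile 81.1 of the female library, well above the 3 members just described.

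Members with a high female level fell less. The 15 members under 1 RPKM in female plants had a median of 26.6 times below the nearer library, against 5.86 times for the 102 members from 1 to under 5 RPKM and 4.89 times for the 25 at 10 RPKM or more. The fold is computed from the female value, so this order is partly fixed by arithmetic. By abundance in the other 2 libraries, the 83 members with a geometric mean of tetrasporophyte and male under 30 RPKM were a median of 5.83 times below the nearer library. The 82 members from 30 to under 100 RPKM were 5.10 times below it, and the 24 members at 100 RPKM or more were 7.26 times below it, with no steady trend over the 3 classes.

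At the 4-fold limit the members thinned out gradually into transcripts that were left out. Between 4 and 4.5 times below the nearer library lay 36 members, and between 3.5 and 4 times lay 51 transcripts left out by this condition alone. The member closest to the limit had 61.1 RPKM in female plants, 245 RPKM in tetrasporophytes and 265.5 RPKM in male plants, and was 4.004 times below the nearer. Just outside it, a transcript with 15.0 RPKM in female plants, 59.95 RPKM in tetrasporophytes and 88.1 RPKM in male plants was 3.99 times below. At the floor, the lowest female value of a member was 0.31 RPKM (63.4 RPKM in tetrasporophytes, 16.1 RPKM in male plants). The highest value left out was 0.27 RPKM in a transcript with 424 RPKM in tetrasporophytes and 225 RPKM in male plants, 835 times below the nearer library. That fall was larger than the one of any member.

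At the abundance limit, the lowest value of a member in the tetrasporophyte or male was 10.1 RPKM, and the transcript closest outside it had 0.42 RPKM in female plants, 21.3 RPKM in tetrasporophytes and 9.97 RPKM in male plants. At the limit on the distance between the other 2 libraries, the outermost member was 3.93 times higher in the tetrasporophyte than in the male. The nearest transcript left out, with 2.96 RPKM in female plants, 206 RPKM in tetrasporophytes and 51.05 RPKM in male plants, was 4.03 times higher in the tetrasporophyte.

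The tetrasporophyte and the male were allowed to differ by less than 4-fold, and the members used this range unevenly. Of the 189, 80 (42.3%) were higher in the tetrasporophyte and 109 higher in the male. Over the 7824 transcripts 52.9% were higher in the tetrasporophyte. After median-of-ratios scaling, which also changed the membership, 69 of 138 (50.0%) were higher in the tetrasporophyte. The tetrasporophyte was at least 2-fold below the male in 56 members (29.6%), less than 2-fold from it in 110 (58.2%) and at least 2-fold above it in 23 (12.2%). The first of these shares was 9.80% (5 of 51) among members at least 8 times below both other libraries. Among the 7824 transcripts that met the tetrasporophyte and male conditions, the same shares were 6.72%, 84.5% and 8.73%. The quartiles of the log2 ratio of tetrasporophyte to male were -1.10 and 0.41 over the members, and -0.38 and 0.46 over the 7824. The rule asks for a fall against both libraries, so it does not leave this ratio wholly free, and no test was made.

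The 56 members with the tetrasporophyte at least 2-fold below the male showed a graded order, lowest in the female, higher in the tetrasporophyte and highest in the male. Their medians were 4.90 RPKM in female plants, 24.5 RPKM in tetrasporophytes and 63.5 RPKM in male plants. They were a median of 4.70 times below the tetrasporophyte in the female and 12.0 times below the male. Their female to male log2 ratios were close together, with quartiles at -3.81 and -3.43, although the rule sets the upper end of this range at -3. Most of this group therefore lay near the 4-fold limit against the tetrasporophyte.

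The 110 members with similar levels in the tetrasporophyte and the male had medians of 3.64 RPKM in female plants, 25.5 RPKM in tetrasporophytes and 29.4 RPKM in male plants. They were a median of 7.38 times below the tetrasporophyte in the female and 7.98 times below the male. The 23 members with the tetrasporophyte at least 2-fold above the male had medians of 2.45 RPKM in female plants, 55.7 RPKM in tetrasporophytes and 19.5 RPKM in male plants. They were a median of 16.3 times below the tetrasporophyte in the female and 6.56 times below the male. These 3 classes are bins of a continuous ratio.

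**Figure D3:**
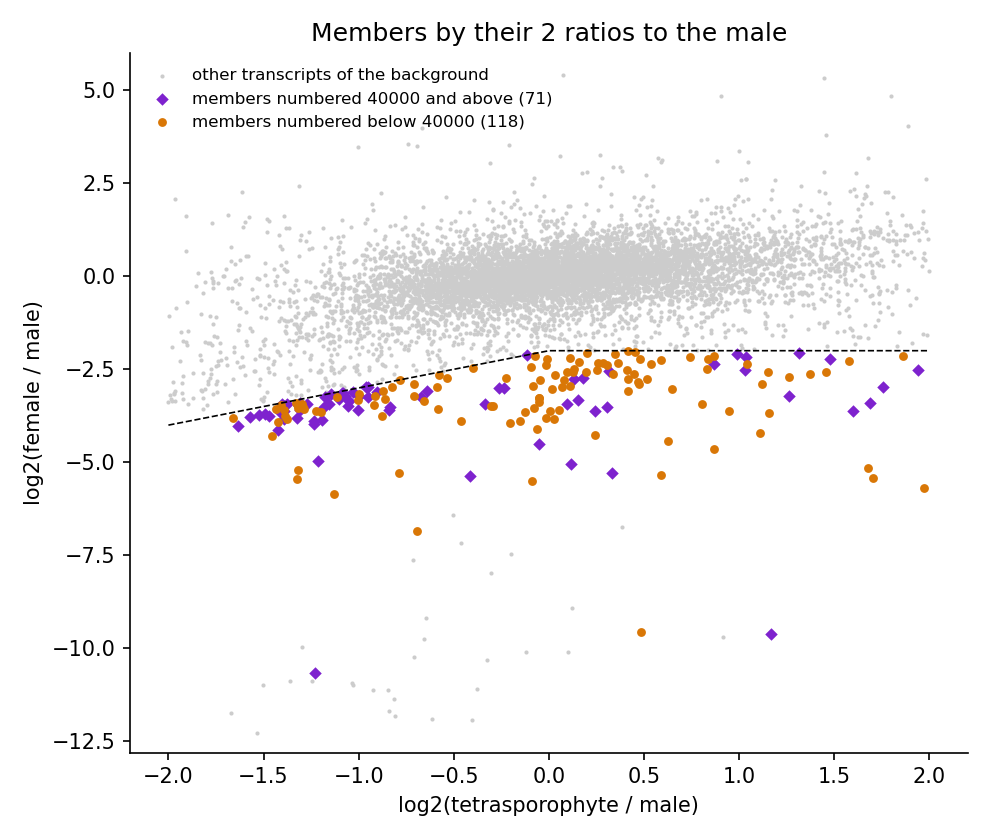
Log2 ratio of female to male against log2 ratio of tetrasporophyte to male, for members numbered 40000 and above (diamonds), members numbered below 40000 (circles) and the other transcripts of the 7824 that were above 0 in the female (grey). The dashed line is the 4-fold limit of the rule; members numbered 40000 and above gather along it at the left, where the tetrasporophyte is at least 2-fold below the male.

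Across members, levels in the 3 libraries went together. Spearman's rho over the 189 members was 0.59 for female and tetrasporophyte, 0.75 for female and male, and 0.65 for tetrasporophyte and male. Over the 7824 transcripts it was 0.69, 0.67 and 0.72 in the same order. These are correlations across transcripts that share 3 libraries and a rule on their levels, so they describe the sets and were given no test.

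The same rule was turned round to find transcripts reduced but present in each of the other libraries. Beside the 189 reduced in the female, it gave 109 transcripts reduced in the tetrasporophyte (1.47% of 7402) and 89 reduced in the male (1.2% of 7434). The female count was the highest of the 3 with both scalings too, at 138, 109 and 118 with median-of-ratios scaling and 240, 170 and 148 with each library scaled to a sum of 1000000. It was not set apart by deep falls. At 8 times or more below the nearer library the counts were 51 in the female set, 54 in the tetrasporophyte set and 50 in the male set, and at 16 times or more they were 21, 21 and 37. The median fall below the nearer library was 5.69 times in the female set, 7.96 times in the tetrasporophyte set and 10.5 times in the male set.

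The floor of 0.3 RPKM removed different numbers from each set. It left out 41 transcripts reduced in the female, 89 reduced in the tetrasporophyte and 38 reduced in the male. Without it the counts were 230 (2.94%), 198 (2.67%) and 127 (1.71%). A transcript not listed for the reduced library was left out of these counts, and the tetrasporophyte listing was longer than those of the female and male. The listings also differed in values of 0, with 6050 in the female, 5041 in the tetrasporophyte and 886 in the male. With 1 library per stage, no test of the difference between these counts was possible.

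**Figure D4:**
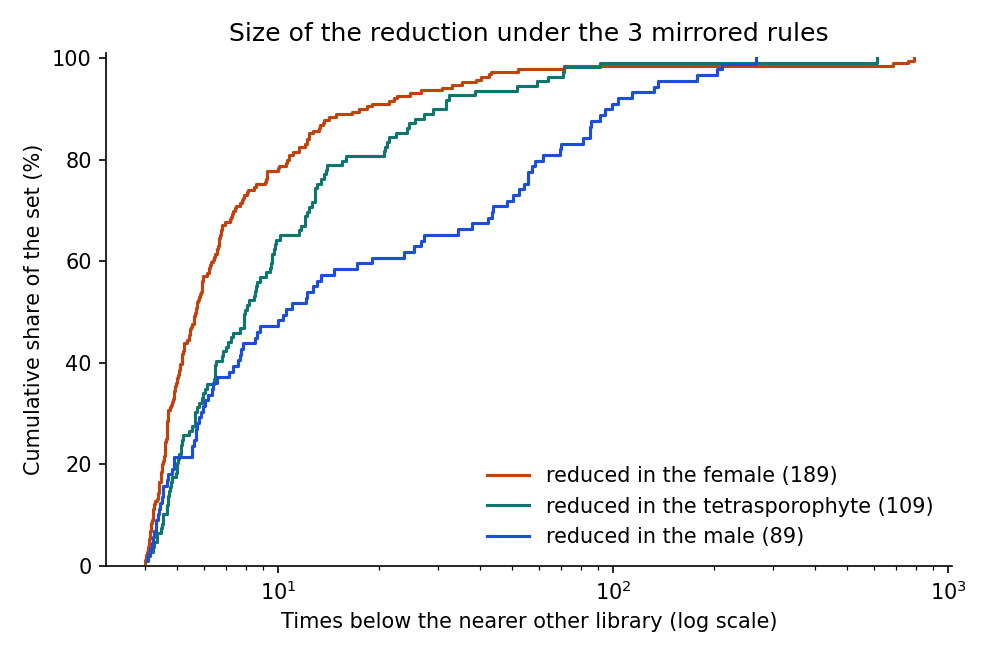
Cumulative share (%) of the transcripts reduced but present in the female (189), the tetrasporophyte (109) and the male (89) against the fold below the nearer of the other 2 libraries (log scale). The female curve lies to the left, with a median of 5.69 against 7.96 and 10.5, and reaches furthest to the right through its 3 largest members.

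In all 3 sets the share of transcripts meeting the rule was highest among the most abundant. Where the nearer library stood at 100 RPKM or more, 6.34% of transcripts were in the female set (21 of 331), 6.37% in the tetrasporophyte set (24 of 377) and 5.71% in the male set (21 of 368). From 10 to under 30 RPKM the shares were 2.07%, 0.932% and 0.598%. The sets were thus alike in share at high abundance. Among transcripts above the 0.3 RPKM floor, the larger female count came from lower abundance. The nearer library was under 30 RPKM in 114 of the 189 members, against 47 of 109 for the tetrasporophyte and 30 of 89 for the male. The floor had left out 41, 89 and 38 transcripts in the same order, and shares by abundance without it were not computed.

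The assembly number of a transcript was not used by the rule, and the members were unevenly placed along it. From number 40000 to 43049 lay 71 members (37.6%), 5.69% of the 1248 transcripts there that met the tetrasporophyte and male conditions. From 1 to 3999 lay 38 members, 1.18% of 3207. The share was 2.68% from 4000 to 7999 (39 members), 2.06% from 8000 to 11999 (21 members) and 0.831% from 36000 to 39999 (6 members). It was 7.95% from 12000 to 35999, but on only 14 members of 176 transcripts. What orders the numbers is not given in the sources used here.

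Abundance was similar in the last and the first of these ranges, with a median nearer-library level of 22.5 RPKM from 40000 on and 22.6 RPKM from 1 to 3999. Within each class of abundance the share was higher from 40000 on than below it. It was 4.89% against 1.60% from 10 to under 30 RPKM, 6.41% against 1.92% from 30 to under 100 RPKM, and 8.93% against 5.02% at 100 RPKM or more. Transcripts reduced in the tetrasporophyte made up 1.30% of the range from 40000 on, and those reduced in the male 2.14%. Below 40000 the shares were 1.79% in the female set, 1.505% in the tetrasporophyte set and 1.01% in the male set. Pooled over abundance, the tetrasporophyte set was thus not denser from 40000 on than over all numbers below it. Its share was 0.564% against 0.992% from 10 to under 30 RPKM. From 30 to under 100 RPKM it was 0.633% against 2.16%, but at 100 RPKM or more it was 6.87% against 6.10%. Along the numbers, the share of the tetrasporophyte set was highest, at 11.4% of 219 transcripts, from 12000 to 35999. From 1 to 3999 it was only 0.434%, and from 36000 to 39999 it was 0.143%. The male set, like the female set, was denser from 40000 on in each class of abundance, with 8.18% against 4.65% at 100 RPKM or more.

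**Figure D5:**
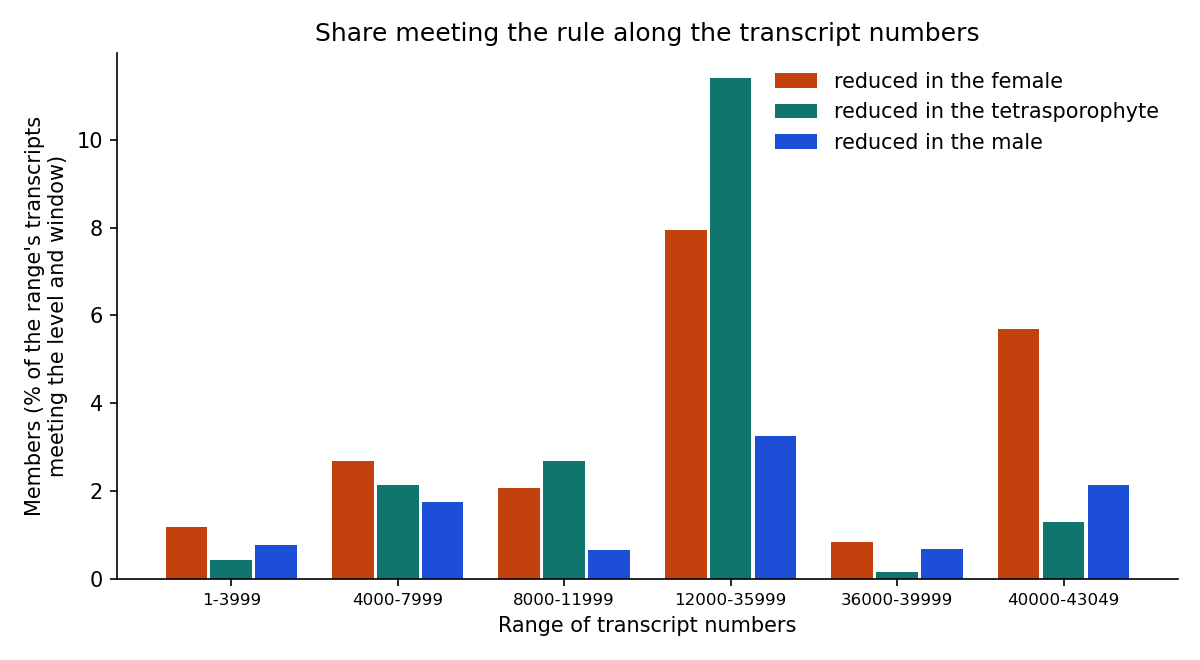
Share (%) of transcripts meeting the rule along 6 ranges of transcript number, for the set reduced in the female (left bar), in the tetrasporophyte (middle bar) and in the male (right bar), each over the transcripts of the range that met the abundance and distance conditions of its own rule. From 40000 to 43049 the female bar stands at 5.69%, against 1.30% and 2.14%.

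Many of the 71 members numbered 40000 or above were graded members. Of the 56 members with the tetrasporophyte at least 2-fold below the male, 35 were numbered 40000 or above, where they were 24.6% of the 142 transcripts with that tetrasporophyte to male ratio. Below 40000 they were 5.47% of 384. The 110 members with similar tetrasporophyte and male levels had 26 there, 2.73% of 953, against 1.48% of 5662 below 40000. The 23 members with the tetrasporophyte at least 2-fold above the male had 10 there, 6.54% of 153, against 2.45% of 530 below.

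Another member stood at the next number for 6 members (3.17%), all numbered above 40000, and these formed 3 pairs. Among the non-members of the 7824, 2.38% had a member at the next number. From 40000 on the shares were 8.45% of members and 5.35% of non-members. In the closest pair the values were 5.09 and 5.70 RPKM in female plants, 21.1 and 25 RPKM in tetrasporophytes, and 54.7 and 52.6 RPKM in male plants. Another pair had 3.91 and 7.93 RPKM in female plants, 17.6 and 41.65 RPKM in tetrasporophytes, and 43.7 and 129 RPKM in male plants. The remaining pair had 8.53 and 13.7 RPKM in female plants, 45.7 and 99.8 RPKM in tetrasporophytes, and 94.96 and 80.2 RPKM in male plants. Whether transcripts with adjacent numbers belong to 1 gene is not given in the sources used here, so the 189 members need not be 189 genes.

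Within 5 numbers the share of members with another member was 38.0% from 40000 on and 8.47% below. Among transcripts of the 7824 that were not members, 20.3% from 40000 on and 9.18% below had a member within 5 numbers. The 182 non-members of the 7824 that stood directly beside a member had a median log2 ratio of female to nearer library of 0.18, the same to 2 decimals as that of all those above 0 in the female. Neighbours outside the 7824 are not covered by this median.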

How the data were processed

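RNA of 1 library per life stage was measured as RPKM, which the authors computed before deposit, per the file headers. The deposited values carry 2 decimals. TRI Reagent extraction and standard Illumina libraries are named in the labels' protocols; assembler, aligner and counting tool were not named in these sources. The 3 listings were joined on the transcript identifier, and RPKM was used without further scaling. Ratios were taken without a pseudocount, since each member is above 0.3 RPKM everywhere. A missing value never met a condition of the rule. No test was made, as no stage had replicates.

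The members and the alternative settings were chosen with earlier results of these data known. At most 2 members were named, the one with the largest fold against the nearer library and the most abundant by geometric mean of tetrasporophyte and male, or the next one where these coincide. Other members whose values are given, the ranges of transcript number and the split by tetrasporophyte to male ratio were chosen after values were seen. The counting code and the estimate of relative depth, made over values from 0.3 to 3 RPKM, were tested on simulated data. For the counting code, the simulated transcripts lay well above the abundance limit and the floor, with falls away from 4-fold. Calls near the limits of the rule were therefore not covered. For the depth estimate, the simulated libraries shared the same expression and differed more in depth than was estimated here. Differences between life stages were therefore not covered. Python 3.11.15, numpy 2.4.6, pandas 2.3.3, scipy 1.17.1 and matplotlib 3.10.9 were used.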

Additional observations from a re-analysis of the deposited data

How the results depend on the processing

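The median female to male and female to tetrasporophyte log2 ratios of the members stayed negative under every alternative tried, which the rule itself requires. Median-of-ratios scaling added 0.28 to every female to male and 0.21 to every female to tetrasporophyte log2 ratio; it gave 138 members, 135 of them among the 189, and 23.2% with the tetrasporophyte at least 2-fold below the male and 50.0% with it higher. Scaling each library to a sum of 1000000 roughly doubles the numbers, so the limits of 10 and 0.3 are looser there: 240 members (27.5% numbered 40000 or above), with 170 reduced in the tetrasporophyte and 148 in the male. Adding 1 RPKM gave 146 members, 23.3% with the tetrasporophyte at least 2-fold below the male, and log2 ratios of -9.58 to the tetrasporophyte and -8.41 to the male for ISGT_41092. An abundance limit of 20 RPKM left 114 members, 46.5% of them numbered 40000 or above. An 8-fold limit left 51 members, with a median female to tetrasporophyte log2 ratio of -4.12, 54.9% higher in the tetrasporophyte, 9.80% with it at least 2-fold below the male and 29.4% numbered 40000 or above, and gave 54 reduced in the tetrasporophyte and 50 in the male. A 3-fold limit gave 297 members and 152 reduced in the male. A 2-fold window between tetrasporophyte and male left 110 members, 51.8% higher in the tetrasporophyte and 23.6% numbered 40000 or above, with 57 reduced in the male; it leaves no value for the graded members. Without the floor 198 were reduced in the tetrasporophyte. Within 5 numbers, 19.6% of members had another member. These limits change the counts by construction. The other 75 alternative values moved by less than 1.5-fold, or, for shares, stayed within the 95% Wilson interval of the reported share, which covers counting only. The shares by transcript number and the graded group were chosen once values had been examined. With unknown read totals, the precision of values near 0.3 RPKM could not be given. No paired analysis was possible because each life stage has 1 library and no comparison was tested.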

Other observations

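Many transcripts with a similar female to male ratio were not members. In a band chosen after the values were seen, with the female 8 to under 16 times below the male, the male at 10 RPKM or more and the female above 0.3 RPKM, there were 305 transcripts, of which 94 were members, 48 of them with the tetrasporophyte at least 2-fold below the male. The tetrasporophyte was at least 4-fold below the male in 132 of the others, and within 4-fold of the male but under 4 times the female in 62. It was under 10 RPKM in 15 more and at least 4-fold above the male in 2. Over the band the median log2 ratio of tetrasporophyte to male was -1.83, with quartiles at -2.27 and -1.23.

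The band was also uneven along the transcript numbers. It held 136 of 1585 transcripts (8.58%) numbered 40000 or above and 169 of 7845 (2.15%) numbered below, over transcripts with at least 10 RPKM in the male and above 0.3 RPKM in the female. Of the 136, 48 were members, and of the 169, 46 were members. The median log2 ratio of tetrasporophyte to male was -1.79 from 40000 on and -1.93 below. These are descriptions of 3 libraries, and their causes were not tested.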
